A study of Mus musculus with 12 samples.

Results

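In P19 cells that were turned into neuron-like cells, 91 transcripts from 91 genes carried poly(A) tails at least 25 nt longer at D6 than at D0. P19 is a mouse embryonal carcinoma line that grows as undifferentiated cells and takes a neural fate under retinoic acid. The 91 transcripts were selected on their tails at D0 and D6: a transcript had to have at least 60 reads pooled over the 3 D0 libraries and at least 60 over the 3 D6 libraries, and its pooled median tail at D6 had to lie at least 25 nt above that at D0. Of 34244 nuclear transcripts with a usable read, 2314 had the reads to be judged, so the 91 members make up 3.93% of those. Because the D0 and D6 tails chose the members, every D6 to D0 tail difference given for them is a description and has no test.

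Native RNA was read by nanopore direct RNA sequencing, in which each RNA molecule passes through the pore, so that a single read names the transcript and measures its tail. The 12 libraries were wild-type P19 cells before differentiation (D0, in medium with serum) and after 2 (D2), 4 (D4) or 6 (D6) days from transfer to NDiff 227 medium with retinoic acid, with 3 biological replicates per day. Reads were assigned to a day by the day and replicate column of the deposited table. The names of the D0 sequencing runs hold the words undifferentiated or undifferentiating beside D2, and those of the later D6 runs hold no day, so the day of these runs rests on that column. Retinoic acid, the change of medium and time in culture went together, so their parts in any change cannot be told apart.

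The poly(A) tail is added to a new mRNA in the nucleus after the transcript is cut downstream of a poly(A) signal, most often AAUAAA. In the cytoplasm it is bound by poly(A)-binding protein and shortened by deadenylases, mainly the CCR4-NOT and PAN2-PAN3 complexes. In early embryos and in oocytes tail length is closely tied to translation, whereas in most somatic cells this link is weaker.

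The signals of 6 members are shown because they mark where the tails measured here were attached. The windows were read from GENCODE vM21 transcripts, on the same mm10 coordinates as the deposited table, and lie in annotated 3′ UTRs. They are written 5′ to 3′, and capitals mark the hexamer nearest to the read end. The Marcks window holds the same hexamer once more, in lower case, before it. For Hspa8, Atf4 and Cnot7 the most common read end lay within 1 base of the annotated transcript end, whereas reads of Marcks and Sox11 ended 1441 and 951 bases before it. Cnot6 had a pair of ends that were used to different extents on different days, and the downstream one is shown.
Hspa8 (chr9:40805164-40805193, plus strand): gtaacatggaatAATAAAactatttaaatt
Atf4 (chr15:80257505-80257534, plus strand): tgtgtttgctgtAATAAAttattttgtagt
Marcks (chr10:37134813-37134842, minus strand): aaaataaatgtgAATAAAatgtacaaattt
Sox11 (chr12:27335223-27335252, minus strand): gttcaaaagaccAATAAAaatcgtgtgatc
Cnot7 (chr8:40492550-40492579, minus strand): aaagcttttgtaAATAAAggcttcaaaaat
Cnot6 downstream (chr11:49671509-49671538, minus strand): tcatagccaaccAATAAAttcaatatctgt

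The hexamer AATAAA on the transcript strand stood within the 50 bases before the most common read end in 70 of the 91 members (76.9%) and in 1630 of the 2199 other transcripts that matched the annotation (74.1%). ATTAAA without AATAAA stood there in 10 members (10.99%) and in 312 others (14.2%). The members therefore resembled the rest in these letters.

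Usable reads per library ranged from 120326 to 613756, with D2 the shallowest day. The labelled cell types were checked on marker genes. The summed level of 5 markers of undifferentiated cells (of 7 looked for) was 1684 to 1913 reads scaled to a common library size (CPM) at D0 and 2.33 to 5.94 at D6, where Nanog, Utf1 and Tdgf1 were at 0. The 8 neuronal markers summed to 495 to 518 CPM at D0 and 2843 to 3116 at D6. At D6 the 3 fibroblast markers found were at 0, the 2 endoderm markers found summed to at most 5.94 CPM, the 4 of mesoderm and muscle to at most 14.7 and the 3 of glia to at most 40.5. Of 5 added RNA standards, those named for tails of 64 and 32 nt had the same pooled medians at D0 and D6 (60.2 and 36.9 nt), the one for 16 nt went from 21.9 to 18.96 nt and the one for 128 nt from 61.4 to 63.3 nt. The standard named for 256 nt, the one read near the length of the members' tails, went from 102 nt at D0 (92 reads) to 117 nt at D2 (58 reads), 105 nt at D4 and 108 nt at D6 (189 reads). The part of such drift in the members' tails was not tested.

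The median member rose by 29.5 nt, while the median of all 2314 transcripts changed by 1.32 nt (SD across transcripts 12.9 nt). Falls of 25 nt or more were seen in 26 transcripts. The median over members of the library median tail at D0 was 103 ± 3.03 nt (mean ± SD, n = 3 libraries on each day), 110.2 ± 4.30 nt by D2, 112 ± 5.22 nt by D4 and 133 ± 3.21 nt by D6. Over all transcripts judged, members included, the same quantity was 104 ± 2.76, 101 ± 1.39, 103 ± 1.18 and 106 ± 0.269 nt.

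**Figure D1:**
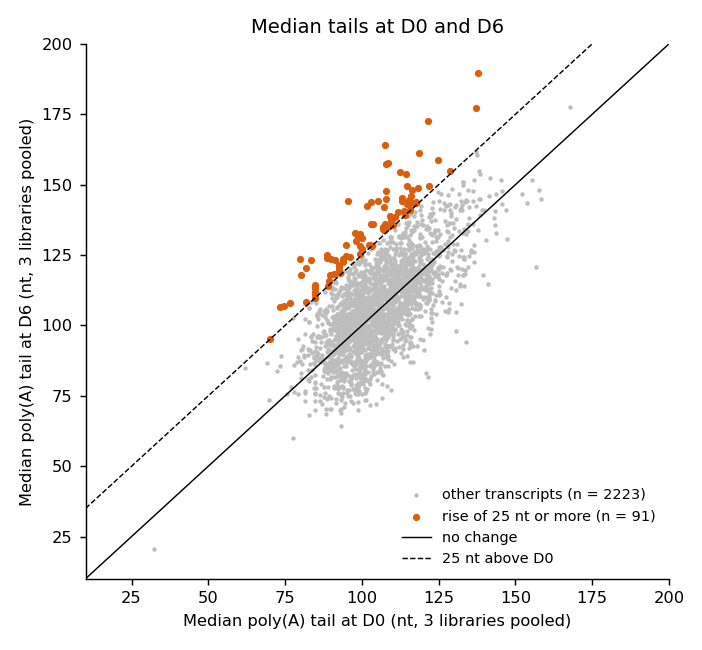
Pooled median poly(A) tail of each transcript at D0 (horizontal axis, nt) and D6 (vertical axis, nt), 3 libraries pooled per day. The 91 members (orange) lie on or above the dashed line 25 nt over D0 by choice, while the 2223 other transcripts (grey) scatter around the line of no change.

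The shares below use the D0 and D6 tails that chose the members. On average over members, tails of 30 to 90 nt made up 38.4% of reads at D0 and 24.7% at D6, and tails over 150 nt made up 24.5% and 39.8%. Tails under 30 nt were 3.40% of reads at D0 and 2.58% at D6. The share over 150 nt was higher at D6 in 90 of the 91 members, and the share under 30 nt in 31.

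Depth differed strongly within the list. Of the members, 72 had under 120 reads on at least one of the 2 days, as did 1178 of the 2314 transcripts judged. D6 to D0 changes spread more widely in those shallower transcripts (SD 13.9 nt) than in the deeper ones (SD 11.2 nt). Of the 1136 deeper transcripts, 19 were members and 7 fell by 25 nt or more.

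Hspa8, the constitutive HSC70 chaperone that folds new proteins and uncoats clathrin vesicles, was by far the most deeply read member. Its transcript lies at chr9:40800984-40805200. The median tail was 68.7, 67.7 and 74.2 nt in the D0 libraries, 89.1, 95.9 and 95.3 nt at D2, 95.9, 92.3 and 98.6 nt at D4, and 96.8, 92.2 and 96.8 nt at D6. Every library after D0 lay above every D0 library, and the 3 later days overlapped. The pooled medians rested on 2214, 1185, 2269 and 2163 reads and were 70.1 nt (95% interval 67.8 to 72.6) at D0 and 95.2 nt (91.9 to 98.3) at D6. The intervals of medians come from order statistics and cover sampling of reads only. Of Hspa8 reads at D0, 34.4% had tails over 90 nt, and the later days had 52.7, 53.4 and 52.8%. A second Hspa8 transcript with 924 reads at D0 and 608 at D6 rose by 17.5 nt, short of the limit.

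Hspa5, the chaperone BiP of the endoplasmic reticulum, had library medians of 98.9, 85.6 and 97.6 nt at D0, 128.5, 90.2 and 109.7 nt at D2, 83.8, 101.6 and 96.0 nt at D4, and 127.8, 118 and 127.2 nt at D6. The D6 libraries lay above all D0 and D4 libraries. A second Hspa5 transcript with more reads (235 at D0 and 243 at D6) changed by 8.76 nt, and only 16.2% of the reads on the member transcript had a mapping quality of 10 or more. Among 39 chaperone transcripts judged, these 2 were members (5.13%, against 3.93% of all), 28 changed upward by any amount and the median change was 6.82 nt.

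Atf4 encodes the transcription factor of the integrated stress response. Its median tail was 113, 116 and 111 nt at D0, 117.5, 115 and 143 nt at D2, 137, 139.9 and 135 nt at D4, and 146, 169 and 143 nt at D6. The pooled rise of 39.7 nt passed through 123 nt at D2 and 137 nt at D4. Slc38a2, an amino acid transporter induced when amino acids run short, had medians of 109.9, 121.5 and 121.8 nt at D0 and 129, 149.6 and 136 nt at D6, with 148, 121 and 149.8 nt at D2. Its D6 and D0 libraries did not overlap, while its D2 libraries spanned both.

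Marcks, an actin-binding substrate of protein kinase C in growth cones, had 1212 reads in all. Its library medians were 123, 109.9 and 119 nt at D0, 123, 125 and 127 nt at D2, 128, 125 and 134 nt at D4, and 146, 145 and 138 nt at D6. The D6 libraries lay above every earlier one. Of 42 transcripts for actin and growth cone proteins judged, Marcks and Actr1b, an actin-related protein of the dynactin complex, were members (4.76%). Actr1b varied much more between replicates, with 71.3, 99.4 and 118.5 nt at D0 and 134, 119 and 144 nt at D6.

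Sox11, a transcription factor of immature neurons, had median tails of 125, 124 and 138 nt at D0 and 147.5, 162 and 161 nt at D6. Its D2 libraries (153, 130.1 and 135 nt) spread across both days, and its D4 libraries (139, 136 and 145 nt) lay below the D6 ones. It was the member among 6 neural transcription factors and Notch genes judged. Rcor2, a corepressor of the CoREST family, had 106.9, 76.2 and 94.4 nt at D0 and 109.9, 126 and 128 nt at D6, and its groups did not overlap. Only 2.31% of the Rcor2 reads had a mapping quality of 10 or more. Another Rcor2 transcript changed by -14.6 nt on 21 reads at D0 and 22 at D6. Snap47, a SNARE protein and the 1 member among 33 synaptic and vesicle transcripts, had 143 nt in the first D6 library but 107 and 104 nt in the others, the level of the highest D0 library.

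**Figure D2:**
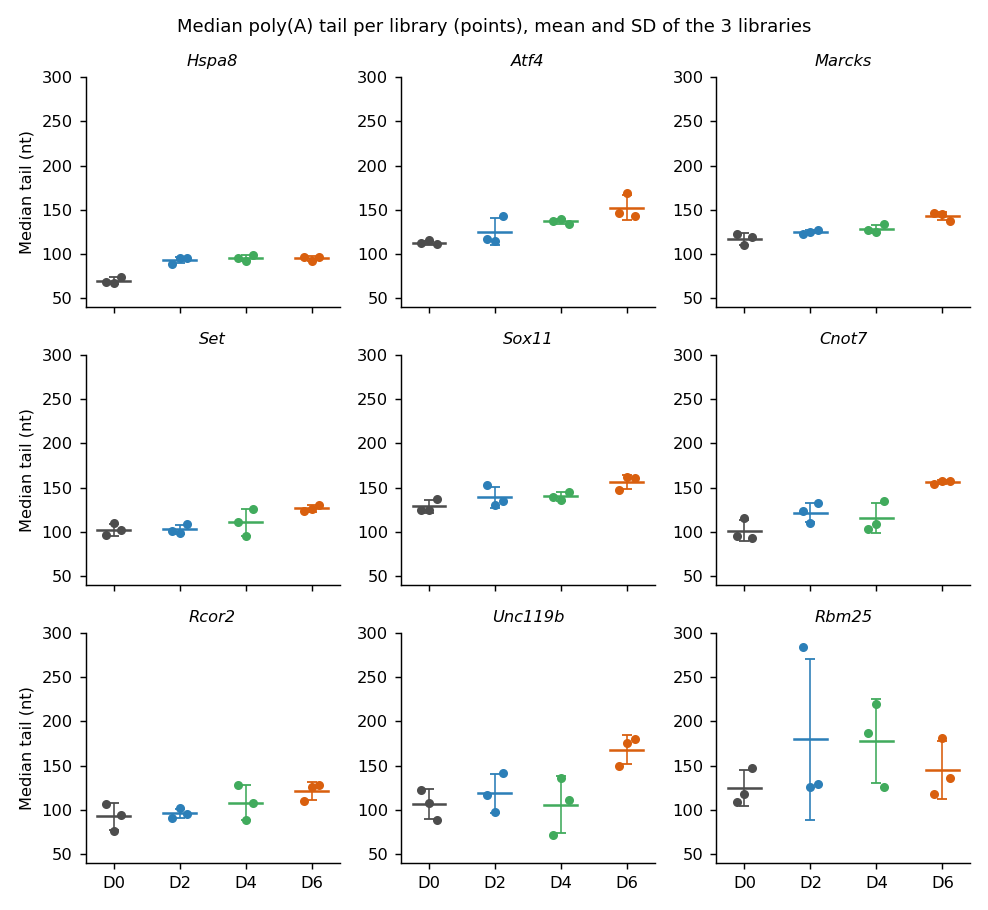
Median poly(A) tail per library (points, nt) of 9 members on each day, with the mean (line) and SD (bar) of the 3 libraries. Hspa8 stepped up by D2, Marcks, Atf4 and Cnot7 were highest at D6, and Rbm25 shows the spread of a member read few times, with a D2 library of 2 reads at 284 nt.

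Of 15 transcripts for deadenylases and poly(A) factors judged, 3 were members (20%, against 3.93% of all): Cnot7 and Cnot6, both catalytic deadenylases of the CCR4-NOT complex, and Larp1, which binds TOP mRNAs and poly(A). The median change of the 15 was 2.03 nt, and 9 lay above 0. Cnot7 had 95.8, 115 and 93.7 nt at D0 and 154, 157 and 158 nt at D6. Its D2 and D4 libraries ranged from 104 to 135 nt, so all 3 D6 libraries lay above the 9 earlier ones. Cnot6 had 112, 108 and 124 nt at D0 and 147.5, 139.8 and 140.5 nt at D6. Larp1 was decided by 1 library: its D6 medians were 94.9, 159.7 and 124 nt, against 115, 104 and 116 nt at D0, and without the second D6 library its rise of 30.9 nt became a change of -3.23 nt.

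Splicing factors and other RNA-binding proteins, one of the longest lists used, held 6 members of 110 judged (5.45%, against 3.93% of all), with a median change of 5.0 nt and 75 above 0. Hnrnph1, a regulator of alternative splicing, had 88.7, 121.6 and 138 nt at D0 and 141, 138 and 159 nt at D6. Sf3b1, a core component of the U2 snRNP, had 86.0, 105 and 138 nt at D0 and 138, 141 and 134 nt at D6, and its days overlapped. Rbm39 and Rbm25, both splicing regulators, also overlapped between D0 and D6. Rbm25 had 117, 182 and 136 nt at D6, and its rise of 42.8 nt shrank to 5.56 nt without the second D6 library.

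Srrm2, a scaffold of nuclear speckles, had one of the largest rises (51.0 nt), with 134.5, 118 and 139.6 nt at D0 and 165, 162 and 193 nt at D6. Smg5 acts in nonsense-mediated decay and had 92.0, 81.0 and 110.1 nt at D0 and 116, 144 and 172 nt at D6. Xpo5, which exports microRNA precursors from the nucleus, had 98.6, 118 and 90.7 nt at D0 and 159, 143 and 121 nt at D6. None of these 3 overlapped between the days.

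Unc119b, a carrier of lipid-modified proteins to the cilium, had the largest rise. Its medians of 122, 107.7 and 88.4 nt at D0 became 149, 175 and 179.6 nt at D6, a pooled rise of 56.5 nt on 86 and 63 reads. Its D2 and D4 libraries, from 71.3 to 142 nt, did not separate from D0. Morc2a, an ATPase of gene silencing, rose by 51.8 nt, and Huwe1, a ubiquitin ligase, by 49.2 nt. Agpat4, an acyltransferase of phospholipid synthesis, rose by 43.8 nt and Mapkapk2, a kinase downstream of p38, by 42.2 nt. Glyr1, a nuclear NPAC protein of transcribed chromatin, rose by 40.8 nt. The D6 libraries lay above the D0 libraries in 8 of the 12 largest rises, and in 10.1% of all transcripts judged. The same D0 and D6 tails ranked these rises, so nothing is read from the difference. Those 12 had 183 to 497 reads each over all libraries.

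Among chromatin and division genes, Set, a histone chaperone and inhibitor of PP2A, had 96.4, 109.96 and 102 nt at D0 and 123, 126 and 131 nt at D6, with D2 at the D0 level (99.1 to 109 nt). It was 1 of 36 transcripts for histones, HMG proteins and chromatin factors judged (2.78%, against 3.93% of all). Mki67, the Ki-67 proliferation antigen, and Ncapd2, a condensin subunit, were 2 of 46 cell cycle transcripts (4.35%, median change -0.05 nt). Mki67 had 104, 88.9 and 114 nt at D0 and 141, 128 and 124 nt at D6, without overlap.

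In the secretory pathway, Sec61a1, the pore of the translocon, and Tmed7, a cargo receptor whose member transcript is annotated as a retained intron, were members of 51 transcripts judged (3.92%). Sec61a1 had 90.9, 90.5 and 84.3 nt at D0 and 118, 99.9 and 117 nt at D6. Vps4b, an ATPase of the ESCRT pathway and 1 of 42 lysosome and endocytosis transcripts, had 113, 68.6 and 117 nt at D0 and 141, 86.0 and 150.5 nt at D6. Without the third D6 library its pooled change was -5.34 nt.

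Mitochondrial and proteasome genes held members at or below the share of all transcripts judged. Mrpl9 and Mrps22, proteins of the mitochondrial ribosome, were 2 of 53 transcripts of that group (3.77%, median change -1.77 nt), and both overlapped between days. Atp5g1, subunit c of ATP synthase, was 1 of 88 oxidative phosphorylation transcripts (1.14%), whose median change was -5.67 nt. Psmd13, a subunit of the proteasome lid, was 1 of 36 (2.78%) and had 74.9, 81.2 and 89.6 nt at D0 and 113.8, 95.2 and 110.7 nt at D6. Selenot, a selenoprotein of the endoplasmic reticulum, was 1 of 33 redox transcripts. Mest, an imprinted gene of the mesoderm, was 1 of 7 imprinted transcripts and stood at 119 nt already at D2, where its libraries ranged from 96.0 to 166 nt.

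No member came from 160 transcripts for ribosomal proteins and translation factors, whose median change was -16.4 nt. Lists of glycolytic enzymes (13 transcripts), tubulins and microtubule proteins (21) and secreted and membrane signals (9) also held none. In all, 29 of the 91 members were on one of the lists used.

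The spread over replicates is described here on the libraries that chose the members. All 3 D6 library medians lay above all 3 D0 medians in 56 members. That was also true of 233 of the 2314 transcripts judged (10.1%), which include the members, and nothing is read from the difference because the same contrast chose the members. The 95% intervals of the pooled medians, from the reads that chose the members, were apart in 29 members. This was not counted over all transcripts judged, so nothing is read from it. When each of the 6 libraries was left out in turn, 25 members stayed at 25 nt or more every time and 89 stayed above 0, with a median lowest rise of 21.0 nt. The lowest rise was most often reached without D6 replicate 2 (32 members) or D0 replicate 2 (25 members), the deepest libraries of their days.

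**Figure D3:**
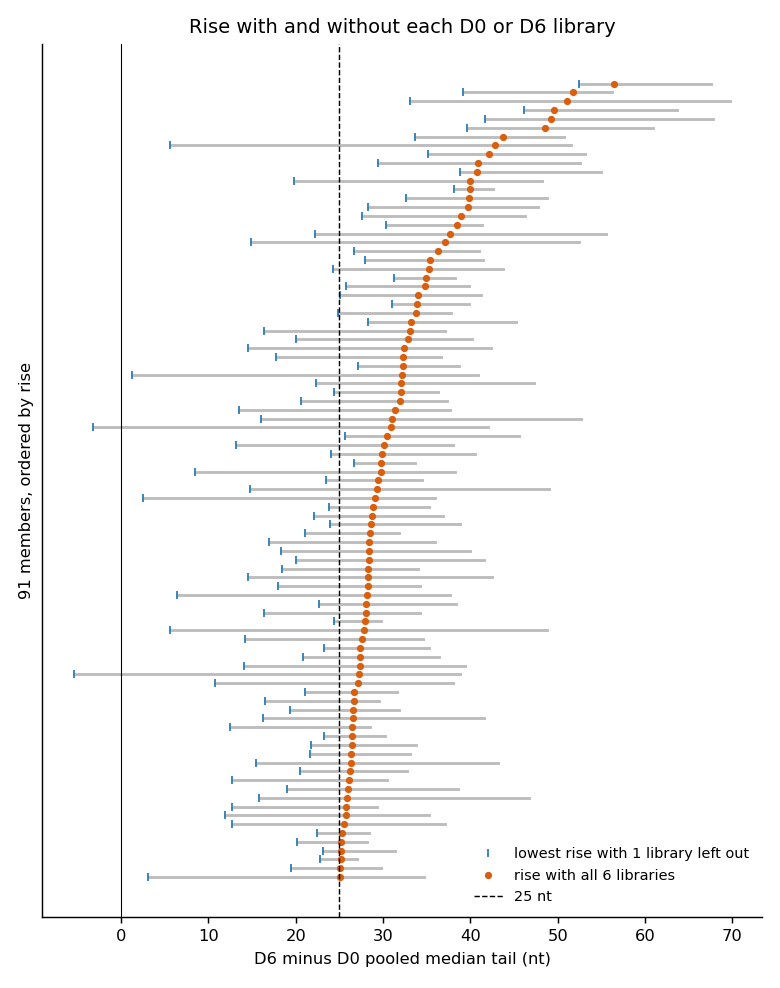
Pooled D6 minus D0 median tail (nt) of the 91 members ordered by rise (orange points), with the range over leaving out each of the 6 D0 and D6 libraries (grey lines) and its lowest value (blue ticks). In 25 members the whole range stays at or above the dashed 25 nt line, and in 2 it reaches below 0.

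The limit of 25 nt cut through a continuous range. Just inside it were Arhgap35 (25.04 nt), a GTPase-activating protein, Mapk8ip1 (25.04 nt), a JNK scaffold, and Hspa8 (25.14 nt). Just outside were Mrpl41 (24.995 nt), Slc38a6 (24.96 nt) and Psmd8 (24.92 nt).

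D6 libraries came from runs dated like those of D0 and from runs dated later, which gave a check within dates. In runs of the shared dates the members' median rise was 29.9 nt and in the later runs 30.5 nt, each against all D0 reads. All 91 lay above 0 in both sets, and 70 and 69 reached 25 nt. Both sets entered the choice of members, so these values describe and do not test the rise. All D0 runs were dated to December and all D2 and D4 runs to January, so in every comparison of D2 or D4 with D0, tails and abundance alike, the run date and the day cannot be told apart. Each run held the libraries of a single day. In the comparisons of D4 with D2 the run and the day therefore cannot be told apart either.

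Timing was read from D2 and D4, which the rule did not use, although the D0 values they were set against did enter it. At D2 the members' pooled median lay above D0 in 68 of 91 (74.7%) and at D4 in 74 (81.3%), against 36.2% and 41.1% of all transcripts judged. The median member lay 10.1 nt above D0 at D2 and 11.9 nt above it at D4, where all transcripts judged lay at -4.23 and -2.10 nt. The median share of a member's full rise was 30.04% at D2 and 35.9% at D4. At least 50% of the rise had been reached by 26 members at D2 and 30 at D4. The largest of the 3 steps was from D4 to D6 in 60 members, from D0 to D2 in 23 and from D2 to D4 in 8. The outer steps contain the days on which members were chosen and the middle step does not.

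**Figure D4:**
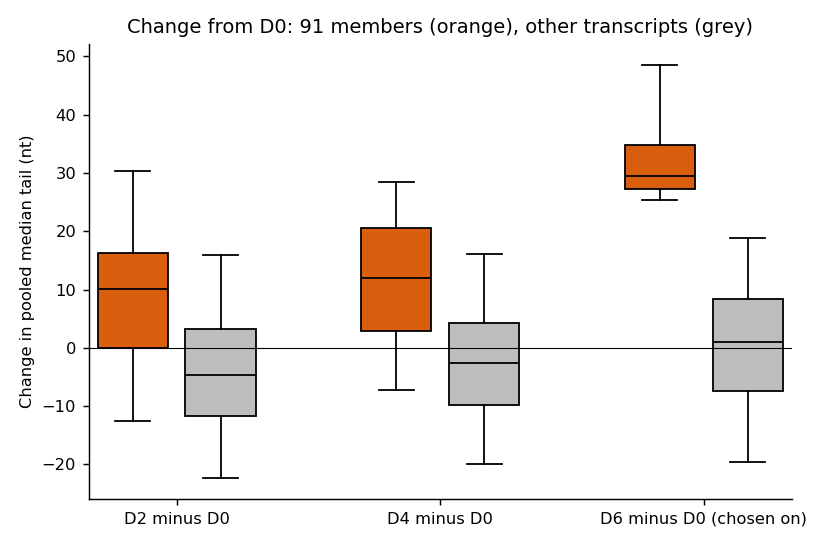
Change of the pooled median tail from D0 (nt) at D2, D4 and D6 for the 91 members (orange) and the other transcripts judged (grey). Boxes span the quartiles around the median and whiskers the 5th to 95th percentiles, with member medians of 10.1, 11.9 and 29.5 nt, the last fixed by the choice of members.

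Library by library, 11 members had all 3 D2 medians above all 3 D0 medians, as had 4.07% of the transcripts with a D2 value in every library. At D4 there were 18 such members, and 5.14% of all transcripts. Both comparisons reuse the D0 libraries that chose the members. Hspa8 and Marcks were among the members in both sets.

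The step from D2 to D4 shares no library with the rule and was tested by limma on library medians weighted by their reads. Of the members, 71 had at least 5 reads in each of the 6 libraries. None was called longer or shorter at an adjusted p of 0.05 by limma, where 0.0316% of the 3161 transcripts tested were called longer and 0.728% shorter. At an unadjusted p of 0.05, 2 members were longer and 1 was shorter (2.82% and 1.41%, against 3.29% and 4.02% of all tested). The log2 scale and every other setting run also called none at the adjusted threshold. The median member changed by 2.52 nt and the median of all transcripts by 0.999 nt, and 47 of 71 members (66.2%) lay above 0, against 53.4% of all. The median standard error of a member's change was 13.4 nt. Hspa8, the most deeply read, had a D4 minus D2 change of 1.03 nt (SE 2.63).

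Abundance was compared by counting reads, a quantity that entered the rule only through its minimum of 60 reads at D0 and at D6. All 91 members passed the minimum of 30 reads, which the rule had already ensured. At D4 against D0, 10 members were higher and 17 were lower by limma-voom at an adjusted p of 0.05. This was 10.99% and 18.7% of the members, against 10.4% and 9.93% of the 12356 transcripts tested. The median log2 change was 0.03 in members and -0.0037 in all transcripts. Members are more deeply read than most transcripts tested. Among the 5634 with at least 100 reads, which include all members, 13 members were higher and 19 lower by limma-voom (14.3% and 20.9%, against 16.3% and 15.2%). Members thus moved in both directions. In bulk RNA, fewer cells of a type and less RNA per cell cannot be told apart.

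Among the members that rose at D4, Marcks had 180.3, 182 and 174 CPM at D0 and 340.2, 354 and 351 at D4, without overlap (log2 change 0.96, SE 0.15, limma-voom adjusted p 1.25e-06). Its level at D6 was 444, 532 and 423. Hnrnph1 had the largest rise (log2 change 1.65, SE 0.25, limma-voom adjusted p 1.12e-06), from 34.1, 64.0 and 76.0 to 189, 189.6 and 161 CPM. Mfap2, a microfibril protein, rose by 1.06 on the log2 scale (SE 0.29, adjusted p 0.0054 by limma-voom), a call that was lost without D0 replicate 1. Hspa8 and Leprotl1 were also called higher, there and in all 13 alternatives. Sox11 was called too but not without D4 replicate 2, and Cnot7 not without D0 replicate 2 or D4 replicate 3. Clstn1 was called in 7 and Vps4b in 5 of the 13 alternatives.

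Among the members that fell, Atf4 had 339, 502 and 432 CPM at D0 and 202, 197 and 142 at D4 (log2 change -1.27, SE 0.16, limma-voom adjusted p 4.39e-08). Slc38a2 went from 253, 229 and 254 to 99.1, 92.3 and 118 (log2 change -1.23, SE 0.18, limma-voom adjusted p 7.95e-07). Neither overlapped between the days, and at D6 they stood at 174 ± 18.996 and 112 ± 7.87 CPM (mean ± SD, n = 3). Atp5g1 fell by 1.35 on the log2 scale (SE 0.20, limma-voom adjusted p 7.72e-07) and the processed transcript of Rnd2, a small GTPase, had a log2 change of -2.04 (SE 0.36, limma-voom adjusted p 2.29e-05). Only 7.80% of the reads on this Rnd2 transcript had a mapping quality of 10 or more. Its call stood in the 12 alternatives that tested it, which did not include the repeat on such reads. Pgp, Set, Ddx21 and Sec61a1 were also called lower, there and in all 13 alternatives. Senp3, a SUMO protease, was called lower but not when only reads of mapping quality 10 or more were counted (limma-voom adjusted p 0.834). The call of Ube4b was lost without D4 replicate 2 and that of Psmd13 without D4 replicate 3. Fem1b was called in 11 of the 13 alternatives, Nup85 in 10, Xpo5 in 8, Selenot in 4 and Tdg in 3.

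At D4 against D2, 3 members were higher and 1 lower by limma-voom, 3.30% and 1.10% of the members, against 1.35% and 0.761% of all transcripts tested. These shares are not matched for depth. In both directions together, 261 of all 12356 transcripts were called, and 257 of the 5634 with at least 100 reads. In that deeper set 3 members were higher and 3 lower. Marcks rose again (log2 change 1.13, SE 0.19, limma-voom adjusted p 0.000116). Sox11 rose by 1.02 (SE 0.27, adjusted p 0.0297 by limma-voom) and Mest by 0.91 (SE 0.24, adjusted p 0.0313), while Sec61a1 fell by 1.02 (SE 0.26, adjusted p 0.0193). The calls of Sox11, Mest and Sec61a1 each ended when single D2 or D4 libraries were left out, whereas that of Marcks stood in all 13 alternatives. At D6 the mean level of the median member was 1.11 times that at D0, with 8 members over 2-fold higher and 8 over 2-fold lower. The D6 values are given without a test.

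The members were longer transcripts than the rest, a property that the rule did not use. Their median annotated length was 3274 nt against 1898 nt in the other transcripts, and their median 3′ UTR 1528 nt against 658 nt. Members made up 0.349% of the shortest of 4 equal length bins of transcripts judged (345 to 1184 nt), 2.45% and 4.02% of the middle bins and 9.08% of the longest bin (3057 nt and over). The median D6 minus D0 change rose through these bins, from -6.99 nt to 0.958, 3.32 and 7.29 nt. Length and change had a Spearman correlation of 0.43 and a Pearson correlation of 0.21 across 2290 transcripts, which share the same libraries and are not independent replicates. Depth was not matched between the sets. With at least 120 reads on both days, members had a median length of 2823 nt (n = 19) and others of 1616 nt (n = 1102), and with fewer reads 3407 nt (n = 72) and 2201 nt (n = 1097).

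Reads of some members also ended at other places at D6. The median read end moved by no more than 10 nt between D0 and D6 in 82 members, and by over 100 nt in 9, named here after their values were seen. In 6 of these (6.59% of members, against 2.86% of other transcripts) it moved toward the annotated 3′ end: Cnot6, Leprotl1, Lix1l, Pgp, Actr1b and Set. In Thoc3, Caprin1 and Grb2 it moved upstream (3.30%, against 0.773%). The share of Cnot6 reads that ended within 50 nt of the annotated end, behind the downstream signal printed above, was 14.7, 23.7 and 17.6% in the D0 libraries and 52.4, 44.9 and 56.8% at D6. It was 71.4, 40 and 66.7% at D2, on 25 reads near that end and 24 upstream of it in all, and 45.0, 44.1 and 40.5% at D4. Every D2 and D4 library lay above every D0 library. In Leprotl1 this share was 13.0, 19.2 and 19.05% at D0 and 57.1, 52.1 and 46.7% at D6, and in Pgp 13.4, 16.5 and 22.7% and 56.2, 61.3 and 33.3%. In Thoc3 it went down, from 74.4, 67.7 and 60% to 50, 39.3 and 33.3%. In Lix1l, Actr1b, Set, Caprin1 and Grb2 the D0 and D6 libraries overlapped in this share. In Grb2, with libraries pooled, it was 31.1% at D0 and 33.0% at D6, so it did not fall. With 3 libraries per day an exact permutation test cannot reach below 0.10, and none was run.

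**Figure D5:**
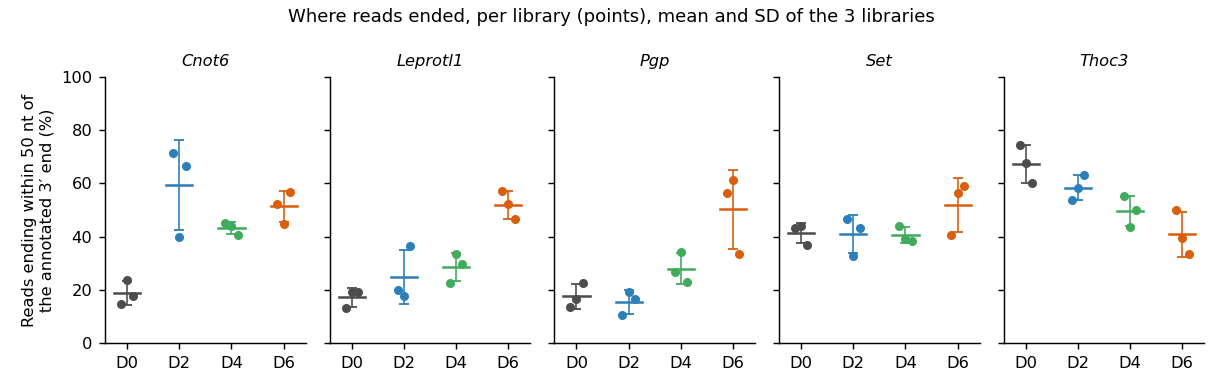
Share of reads (%) that ended within 50 nt of the annotated 3′ end of 5 members in each library (points), with mean (line) and SD (bar) of 3 libraries per day. Cnot6, Leprotl1, Pgp and Thoc3 do not overlap between D0 and D6, whereas Set does.

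In 8 of these 9 members the pooled median tail was longer at D6 on both kinds of read. The pooled D0 and D6 tails of these reads chose the members, so the values here are a description. Cnot6 reads at the downstream end had a median tail of 111 nt at D0 (20 reads) and 165 nt at D6 (54 reads), and those at the upstream end 114 nt (86 reads) and 125 nt (53 reads). Set reads went from 109.5 nt to 133 nt at the downstream end and from 101 to 128 nt upstream. Leprotl1 went the other way at its downstream end, from 123 nt (12 reads) to 108 nt (59 reads), and from 88.2 to 131 nt upstream. The part of the change in read ends in the pooled tail change was not tested further.

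The same genes had 31 other transcripts with at least 20 reads on both days, from 22 genes. Of these, 12 had the reads to be judged and were left out by the rule for a change under 25 nt, so the values that follow are a description. Over the 31 the median change was 8.86 nt, against 4.23 nt over all 6080 transcripts with at least 20 reads on both days. Of the 31, 22 lay above 0 (71.0%, against 60.9% of all). A rise of 25 nt or more was seen in 3 (9.68%, against 13.5% of all), none of which had the reads to be judged. It was 62.6 nt in Hnrnph1, 50.5 nt in Atf4 and 32.4 nt in Rtn4. The coding transcript of Rnd2 changed by -1.40 nt with 369 and 194 reads, whereas the member transcript of that gene had 118 and 65 reads. A more deeply read Atp5g1 transcript changed by -5.71 nt, and a second one of Set by 8.86 nt. Transcripts of a gene share sequence, and reads that fit several were placed on one of them by the aligner. In 57 members at least 80% of the reads had a mapping quality of 10 or more. In 14, among them Srrm2, Huwe1, Larp1, Glyr1, Rcor2 and Rnd2, fewer than 20% had. The part of read placement in these members' tails was not tested beyond the repeat with well-placed reads only, in which 57 of the 91 were again found.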

How the data were processed

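Per the study's methods, Guppy called the bases, minimap2 2.20 placed reads on mouse transcripts (mm10, GENCODE vM17), Nanopolish measured tails and Deeplexicon read the barcodes. Their deposited table has 1 line per aligned read, with the tail in nucleotides, not normalized. The mapping quality in the deposited table is a score, and barcode confidence as deposited by the authors is a fraction of 1. A second deposited table holds only the authors' own log2 fold changes and p-values and was not used. Of 6306434 lines, 69 were malformed and 289260 had no assigned library. Reads were kept with the tag PASS on nuclear mRNA contigs that were not pseudogenes, 4274320 in all.

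Medians were taken over pooled reads or per library. Library medians of D4 and D2 were compared with limma 3.58.1 (R 4.3.3), weighted by reads, with at least 5 reads per library. Reads were tallied per transcript, scaled by the trimmed mean of M-values and tested with limma-voom on transcripts with at least 30 reads over all 12 libraries (pseudocount 0.5), because the table holds no deposited counts. P-values were adjusted by Benjamini-Hochberg over all transcripts tested and called at 0.05. A transcript's count is not divided by its length, since each molecule gives 1 read. Both steps were tested on simulated data. CPM values use the same totals and scaling, and marker sums are CPM of all kept reads. Other tools were Python 3.11.15, pandas 2.3.3, scipy 1.17.1 and matplotlib 3.10.9.

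The members and gene lists were chosen with earlier results of these data known. Named members were those with the 12 largest rises, the 8 with most reads, up to 3 per list by reads, up to 4 per direction called in abundance by fold, and the 3 on each side of the limit. The 9 members with moved read ends and the remaining called members were named after their values were seen. Some members that this rule names are not reported here. Of the 2314 transcripts judged, 2290 matched GENCODE vM21 by versioned identifier, all with the same coordinates. Alternatives covered the rule's limits and statistic, weights, scales, scaling, filters, mapping quality, barcode confidence, a replicate block and leaving out each library.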

Additional observations from a re-analysis of the deposited data

How the results depend on the processing

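The list of members depended on its limits. It held 170 transcripts at a rise of 20 nt and 42 at 30 nt, and 242 with a minimum of 40 reads per day and 19 with 120. Leaving out 1 library with the minimum kept at 60 reads gave 30 (without D6 replicate 2) to 77 (without D0 replicate 3), of which 14 and 42 were among the 91, and 40 without D0 replicate 2 and 47 without D6 replicate 3. Fewer transcripts then had the reads to be judged (1424 to 1994). With the minimum lowered to 40 reads, chosen after seeing the data, leave-outs gave 94 to 230, which held 42 to 74 of the 91. The mean of library medians gave 95 (67 shared), the mean of reads 94 (51 shared), mapping quality 64 (57 shared), barcode confidence 69 (50 shared), and 1 line per read 91.

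No member was called longer or shorter at D4 than at D2 under any of the 15 tail alternatives, and the median change ranged from 0.228 nt (without D4 replicate 3) to 4.87 nt (without D4 replicate 2). The log2 and percentage scales have another unit and give no value in nt. For abundance at D4 against D0, higher members numbered 7 to 15 over the 13 alternatives. Lower members numbered 11 (without D4 replicate 2) to 15 over the leave-outs. At D4 against D2, mapping quality gave 1 higher. No filter gave 0 lower and a filter of 100 reads gave 3. Leave-outs gave 1 to 2 higher and 0 to 2 lower. The cause was not tested. Replicate numbers did not pair the libraries in tails: same-numbered deviations of D2 and D4 correlated at -0.01 to 0.01. In abundance the correlations were uneven. They were 0.07 to 0.21 for D2 and D4, and -0.14, 0.43 and -0.05 for replicates 1, 2 and 3 of D0 and D4. D6 libraries were not checked for pairing. With the replicate block, 8 members were higher and 14 lower at D4 than at D0, and 3 and 1 at D4 against D2. In the blocked tail fit none was called and the median change was 2.88 nt. Depth limits most members, which had medians of 8 to 37 reads per library.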
